A study of Mus musculus with 2 samples.

Results

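The genes of the main poly(A)-shortening enzymes were followed in single mouse pluripotent cells: Cnot8, Cnot7, Cnot6, Cnot6l, Pan2, Pan3 and Parn. They were chosen by their gene symbols as the deadenylase subunits of the Ccr4-Not complex, both subunits of the Pan2-Pan3 complex and Parn, and all 7 were found, once each, among the 32286 features of the count tables. Deadenylases remove the poly(A) tail of an mRNA, a step that commonly precedes its decay. In the Ccr4-Not complex the tail is shortened by a Caf1-type subunit, which is either Cnot7 or Cnot8, and by a Ccr4-type subunit, which is either Cnot6 or Cnot6l, while Cnot1 serves as the scaffold. Pan2 is the nuclease of a second complex, in which Pan3 is the partner that brings it to poly(A)-binding protein, and Parn is a separate nuclease that also trims the tails of small non-coding RNAs.

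The data were 2 droplet-based 3′ scRNA-seq libraries, 1 of mouse ESCs kept in serum and LIF (S/LIF) on feeder cells, at 0 h, and 1 of epiblast-like cells after 48 h in EpiLC medium with activin A and bFGF (48h-EpiLCs). Each library was a mixture, in equal cell numbers by the methods of the study, of WT cells with the ROSA mT/mG reporter, which expresses tdTomato, and of Cnot8 KO cells. The strain is labelled ICR, and the genotype field of both samples reads wild type although their titles name WT and KO cells. There was 1 library per stage and no replicate, so no test was possible, and a difference between stages cannot be told apart from 1 between libraries. The methods of the study start EpiLC formation from ESCs in 2i/LIF medium, which holds kinase inhibitors and LIF. The S/LIF ESCs are thus not shown to be the cells from which the 48h-EpiLCs were made. A difference of culture medium cannot be told apart from stage either. All intervals below are 95% intervals that cover counting error only. They are exact, apart from those of differences between ratios and of co-detection ratios.

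On GRCm38, Cnot8 lies on the plus strand of chr11:58104153-58118594 and Cnot6 on the minus strand of chr11:49671503-49712723. Cnot6l (chr5:96070333-96164171) and Parn (chr16:13537960-13668170) also lie on the minus strand, and Pan2 (chr10:128303335-128321358) and Pan3 (chr5:147430161-147548502) on the plus strand. None of these 6 genes overlaps another gene of the count tables. The KO line came from blastocysts of crosses between heterozygous Cnot8 mutants, which had been made with Cas9 and a guide against exon 2. WT and KO cells are thus different lines, and genotype and line cannot be told apart. The class rule given below also takes Y-linked RNA as present in KO and absent in WT cells. Genotype therefore cannot be told apart from Y-linked content either. The site of the guide was read from the GENCODE M21 transcripts of Cnot8 to show where the lesion lies relative to the reads, with the PAM in capitals. It was found at chr11:58109653-58109675 (GRCm38) on the minus strand, within coding sequence in exon 2 of 7 of the longer transcripts, and the mutant allele of the study lacks 7 bases there. A reference stretch of 27 bases from the same strand is given with these bases in capitals, in 1 of 3 placements that leave the same mutant allele.
Cnot8 guide site: ctgttttctacaagtgccgcAGG
Cnot8 reference around the deletion: ctacaagtgcCGCAGGCatcctgaagg
The number of missing bases is no multiple of 3, so that the reading frame is shifted. The site lies 1859 bases from the 3′ end in the transcripts of 2035 and 2099 bases, and 201 bases from the end of another coding transcript of 750 bases. The count tables hold numbers of UMIs and no bases, so that a 3′ count of Cnot8 does not show whether a cell carries the lesion. The KO label could therefore not be checked with the targeted gene, and an effect of the lesion on the level of Cnot8 mRNA was not tested.

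WT and KO cells were told apart by transcripts other than Cnot8. Cells were kept with at least 1000 detected genes and no more than 10% of UMIs from mitochondrial genes, 11054 of 13184 barcodes in the ESC library and 9400 of 12427 in the 48h-EpiLC library, with 26 kept barcodes in common. A cell was taken as WT with at least 1 tdTomato UMI and 0 UMIs of the Y-linked genes Ddx3y, Eif2s3y, Kdm5d and Uty, and as KO with 0 tdTomato UMIs and at least 2 Y-linked UMIs. This gave 435 WT and 2978 KO ESCs, with medians of 13151 and 13368 UMIs, and 368 WT and 2977 KO 48h-EpiLCs, with medians of 15598 and 17628 UMIs. In neither class were 7641 ESCs and 6055 48h-EpiLCs, and 35 cells of each library held both tdTomato and at least 2 Y-linked UMIs. The autosomal gene Ipp, which the rule did not use, was at 8.12 and 16.2 CPM (UMIs per 1000000) in WT and at 96.5 and 132 CPM in KO cells of the 2 stages. Ipp was chosen after seeing the data, so that it is no independent check of the classes. Of 8 pluripotency markers, 7 were at 5 CPM or more in ESCs of both classes and 8 in 48h-EpiLCs, where Fgf5, a formative marker, was at 53.4 CPM in WT and 35.9 CPM in KO cells against 2.76 and 1.29 CPM in ESCs.

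The 7 genes had modest levels between 13.7 and 60.9 CPM. Levels between genes were compared as CPM without division by length, because a 3′ library counts 1 end of each transcript. Over all kept ESCs, the CPM of Cnot8 was 60.9 (59.6 to 62.2), of Cnot6 45.1 (44.0 to 46.2), of Cnot7 43.5 (42.4 to 44.6), of Parn 32.1 (31.1 to 33.0), of Pan3 22.5 (21.7 to 23.3), of Cnot6l 14.2 (13.6 to 14.8) and of Pan2 13.7 (13.1 to 14.3). The intervals of Cnot6 and Cnot7 overlapped, and so did those of Cnot6l and Pan2, which does not show that the levels were equal. The same order was found over all kept 48h-EpiLCs, from 57.7 CPM for Cnot8 to 13.8 CPM for Pan2, and there Cnot6l (16.6 CPM) and Pan2 had intervals that did not overlap.

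In WT cells the lead of Cnot8 over Cnot6, the next gene, was not seen beyond counting error. Over Cnot7 it was seen in WT 48h-EpiLCs, where Cnot8 gave 56.0% (51.7% to 60.2%) of the UMIs of the pair. The levels of Cnot8, Cnot6, Parn and Cnot7 in WT ESCs were 43.1, 42.6, 41.1 and 38.3 CPM, with neighbouring intervals that overlapped, and in WT 48h-EpiLCs they were 49.7, 44.7, 39.2 and 39.1 CPM. In KO cells Cnot8 stood above Cnot6 with no overlap of intervals at both stages. Summed over the 7 genes, the level was 212 CPM in WT and 245 CPM in KO ESCs, and 232 and 235 CPM in 48h-EpiLCs.

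**Figure D1:**
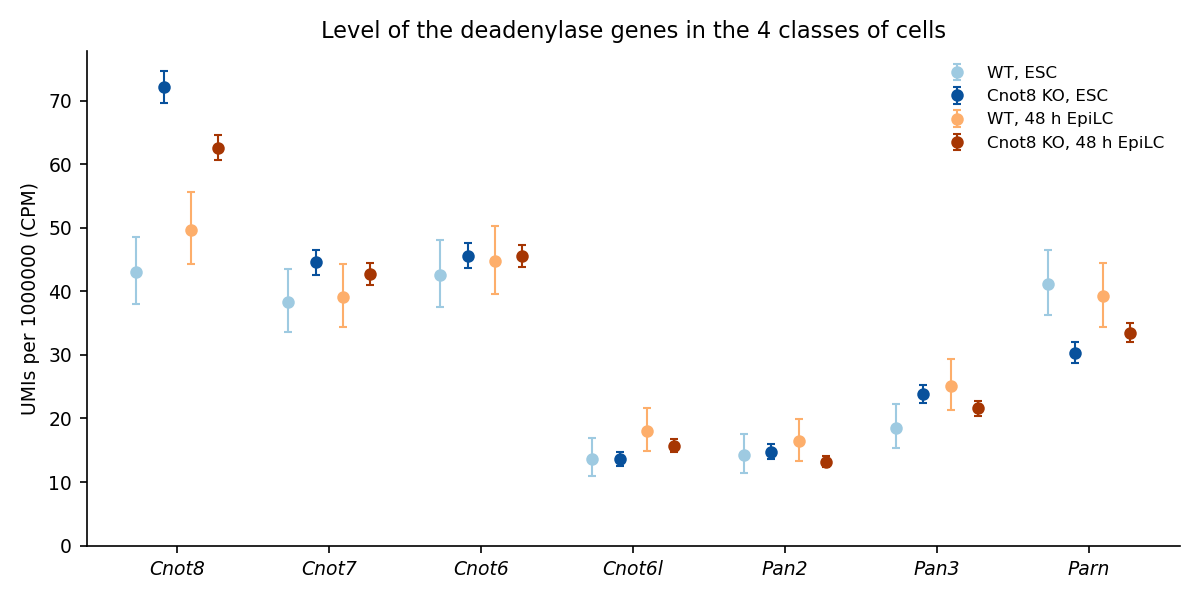
Level of each gene in CPM in WT and Cnot8 KO cells of the ESC and 48h-EpiLC libraries; points are summed UMIs over the class total and bars are exact 95% Poisson intervals. Cnot8 in KO ESCs is at 72.1 CPM, above every other point, and the WT points of Parn, at 41.1 and 39.2 CPM, lie above its KO points, at 30.3 and 33.5 CPM.

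Cnot8, a Caf1-type nuclease and the gene targeted in the KO line, was higher in KO than in WT cells. Its level was 43.1 CPM (38.0 to 48.6, 265 UMIs) in WT ESCs, 72.1 CPM (69.6 to 74.6, 3180 UMIs) in KO ESCs, 49.7 CPM (44.3 to 55.5, 309 UMIs) in WT 48h-EpiLCs and 62.6 CPM (60.6 to 64.6, 3711 UMIs) in KO 48h-EpiLCs. The WT and KO intervals did not overlap at either stage. In ESCs the KO level was 1.67-fold the WT level (1.48 to 1.91), a log2 ratio of 0.74 (0.56 to 0.93), which lay at percentile 91.1 of the 9273 genes with a mean of at least 5 CPM in the 2 classes. In 48h-EpiLCs the log2 ratio was 0.33 (0.17 to 0.51), at percentile 78.5 of 9381 genes.

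Between the stages, the ratios of Cnot8 had opposite signs in WT and KO cells. Its log2 ratio of 48h-EpiLCs over ESCs was 0.21 in WT cells, with an interval that included 0 (-0.03 to 0.45), and -0.20 (-0.27 to -0.14) in KO cells. The KO over WT log2 ratio at 48 h was thus lower than in ESCs by 0.41 (difference -0.41, -0.66 to -0.16), which has no replicate check.

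The size of the Cnot8 difference depended on how the lines were told apart. When WT and KO were instead set by the autosomal genes Dera and Ipp, with tdTomato and Y-linked UMIs not used, a choice made after seeing the data, the level in ESCs was 46.7 CPM (43.9 to 49.7) in 1545 WT cells and 72.3 CPM (69.2 to 75.4) in 2004 KO cells, a log2 ratio of 0.63. The WT cells so set held 19.7 CPM of Y-linked RNA, against 124 CPM in the KO cells. In 48h-EpiLCs these classes gave 49.3 and 63.9 CPM and a log2 ratio of 0.37. With cells of at least 20000 UMIs, and WT by 0 Y-linked UMIs whatever tdTomato, the ESC log2 ratio was 0.40. The 286 WT cells of that setting held 26.8 CPM of Ipp, against 8.12 CPM in the 435 WT cells above, and the part of admixed KO cells in the lower ratio was not tested.

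Cnot7, the other Caf1-type nuclease, differed less between the lines than Cnot8. Its level was 38.3 CPM (33.6 to 43.6) in WT ESCs, 44.6 CPM (42.6 to 46.6) in KO ESCs, 39.1 CPM (34.3 to 44.3) in WT 48h-EpiLCs and 42.7 CPM (41.0 to 44.4) in KO 48h-EpiLCs, and the WT and KO intervals overlapped at both stages. The KO over WT log2 ratio was 0.22 (0.02 to 0.42) in ESCs and 0.13 (-0.06 to 0.32) in 48h-EpiLCs. Under 13 alternatives the ESC ratio lay between 0.04 and 0.25, and the 48 h ratio kept its sign in 10 of 13. At 48 h it was -0.13 after thinning to 5000 UMIs and -0.02 with the classes set by Dera and Ipp. Cnot7 lies on the minus strand of chr8:40492540-40515847 (GRCm38), where Zdhhc2, on the opposite strand, overlaps its last 1000 bases and Vps37a overlaps it further away. Strand use in the counting was not given in the sources used here, and Zdhhc2 was between 2.54 and 7.40 CPM in the 4 classes.

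Together the Caf1-type genes amounted to 81.4 CPM (74.4 to 88.9) in WT ESCs and 117 CPM (114 to 120) in KO ESCs, and to 88.8 CPM (81.5 to 96.5) and 105 CPM (103 to 108) in 48h-EpiLCs. Cnot8 gave 52.9% of the Caf1-type UMIs in WT ESCs (48.4% to 57.3%) and 61.8% in KO ESCs (60.5% to 63.1%), and 56.0% (51.7% to 60.2%) and 59.5% (58.2% to 60.7%) in 48h-EpiLCs. The balance of the pair differed between WT and KO beyond counting error in ESCs, while at 48 h the intervals overlapped. Over the last 500 bases of the coding transcripts, the longest run of identical bases was 12 between Cnot8 and any Cnot7 transcript, and 16 between Cnot6 and any Cnot6l transcript.

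The Ccr4-type genes did not differ between WT and KO cells beyond counting error at either stage. Cnot6 was at 42.6 CPM (37.6 to 48.1) in WT ESCs, 45.6 CPM (43.6 to 47.7) in KO ESCs, 44.7 CPM (39.6 to 50.3) in WT 48h-EpiLCs and 45.5 CPM (43.8 to 47.3) in KO 48h-EpiLCs. Cnot6l was at 13.7 CPM (10.9 to 16.9), 13.6 CPM (12.5 to 14.7), 18.0 CPM (14.8 to 21.7) and 15.8 CPM (14.8 to 16.8) in the same order. Cnot6 was thus the more abundant of the pair in every class, with 71.3% to 77.1% of its UMIs.

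For Cnot6 the KO over WT log2 ratios were 0.10 (-0.09 to 0.29) and 0.03 (-0.15 to 0.21), and for Cnot6l they were -0.01 (-0.34 to 0.34) and -0.19 (-0.48 to 0.10). The intervals of Cnot6l are wide because 84 UMIs in WT ESCs carry the comparison, and they do not show that the lines were alike. Between the stages, the log2 ratio of Cnot6l for 48h-EpiLCs over ESCs was 0.40 (-0.02 to 0.83) in WT and 0.21 (0.06 to 0.36) in KO cells, and only the KO interval lay off 0. The stage ratios of Cnot6 were 0.07 (-0.18 to 0.32) and -0.003 (-0.087 to 0.081).

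Pan3, the partner subunit of the Pan2 nuclease, had KO over WT ratios of opposite sign at the 2 stages as summed counts, and not after thinning. It was at 18.5 CPM (15.3 to 22.3) in WT ESCs and 23.8 CPM (22.4 to 25.3) in KO ESCs, but at 25.1 CPM (21.3 to 29.3) in WT 48h-EpiLCs and 21.6 CPM (20.4 to 22.8) in KO 48h-EpiLCs. The KO over WT log2 ratio was 0.36 (0.08 to 0.65) in ESCs and -0.22 (-0.46 to 0.03) at 48 h, a difference of -0.58 (-0.94 to -0.21). From ESCs to 48h-EpiLCs its log2 ratio was 0.44 (0.08 to 0.80) in WT and -0.14 (-0.26 to -0.02) in KO cells. In cells thinned to 5000 UMIs the KO over WT ratio at 48 h was 0.19, the same sign as in ESCs, and the stage ratio in WT cells was 0.05. With cells of at least 20000 UMIs the KO over WT ratio in ESCs was 0.06. With the classes set by Dera and Ipp the KO over WT ratios were 0.18 and -0.02, and the stage ratios, 0.22 in WT and 0.02 in KO cells, no longer had opposite signs.

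Pan2, the nuclease itself, was at 14.3 CPM (11.5 to 17.6) in WT ESCs, 14.8 CPM (13.7 to 16.0) in KO ESCs, 16.4 CPM (13.4 to 19.9) in WT 48h-EpiLCs and 13.2 CPM (12.3 to 14.2) in KO 48h-EpiLCs. The WT and KO intervals overlapped at both stages. Its KO over WT log2 ratio was 0.05 (-0.27 to 0.39) in ESCs and -0.31 at 48 h, with a fold of 0.805 whose interval only just excluded 1 (0.654 to 0.9998). With the classes set by Dera and Ipp the ratio at 48 h was -0.04. Pan3 gave 56.4% to 62.1% of the UMIs of the pair in the 4 classes.

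Parn was the gene of the set with less RNA in KO than in WT cells at both stages with intervals off 0. Its level was 41.1 CPM (36.2 to 46.5) in WT ESCs, 30.3 CPM (28.7 to 32.0) in KO ESCs, 39.2 CPM (34.5 to 44.5) in WT 48h-EpiLCs and 33.5 CPM (32.0 to 35.0) in KO 48h-EpiLCs. The WT and KO intervals did not overlap in ESCs, and overlapped in 48h-EpiLCs. The KO over WT log2 ratio was -0.44 (-0.64 to -0.24) in ESCs, at percentile 8.79 of the genes tested, and -0.23 (-0.42 to -0.03) at 48 h. With the classes set by Dera and Ipp these ratios were -0.23 and -0.24. In ESCs the ratio was -0.11 after thinning to 5000 UMIs and -0.13 with cells of at least 20000 UMIs and WT by absent Y-linked UMIs alone, and the cause was not tested. From ESCs to 48h-EpiLCs the log2 ratio of Parn was -0.07 (-0.33 to 0.19) in WT and 0.15 (0.04 to 0.25) in KO cells.

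By the count of genes past 1.5-fold, the deadenylase genes as a list were not far from the background of all genes in any comparison. In ESCs, 1 of the 7 genes, Cnot8, was higher in KO than in WT cells by over 1.5-fold, where 13.8% of all tested genes were, and 0 of 7 were lower, where 5.6% were. In 48h-EpiLCs, 0 of 7 were past 1.5-fold between KO and WT, where 9.01% of genes were higher and 4.95% lower. Between stages, 0 of 7 were past 1.5-fold in WT cells, where 14.6% of genes were higher and 12.4% lower in 48h-EpiLCs, and 0 of 7 in KO cells, where 9.51% were higher and 11.1% lower.

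The median log2 ratio of the 7 genes was 0.10 for KO over WT in ESCs, beside 0.13 over all genes tested, and -0.19 beside 0.08 in 48h-EpiLCs. In 48h-EpiLCs this member median lay below the first quartile of all genes tested, which was -0.14. For 48h-EpiLCs over ESCs the member median was 0.20 beside 0.03 in WT cells and -0.06 beside -0.02 in KO cells. Scaling with TMM factors in place of totals moved all KO over WT log2 ratios by -0.10 in ESCs and -0.05 in 48h-EpiLCs, and the direction of Pan2 in ESCs then changed, to -0.05, as did that of Cnot6 in 48h-EpiLCs, while Cnot8 and Parn kept theirs. The 4 comparisons share classes in pairs, so that their values are not independent of each other.

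**Figure D2:**
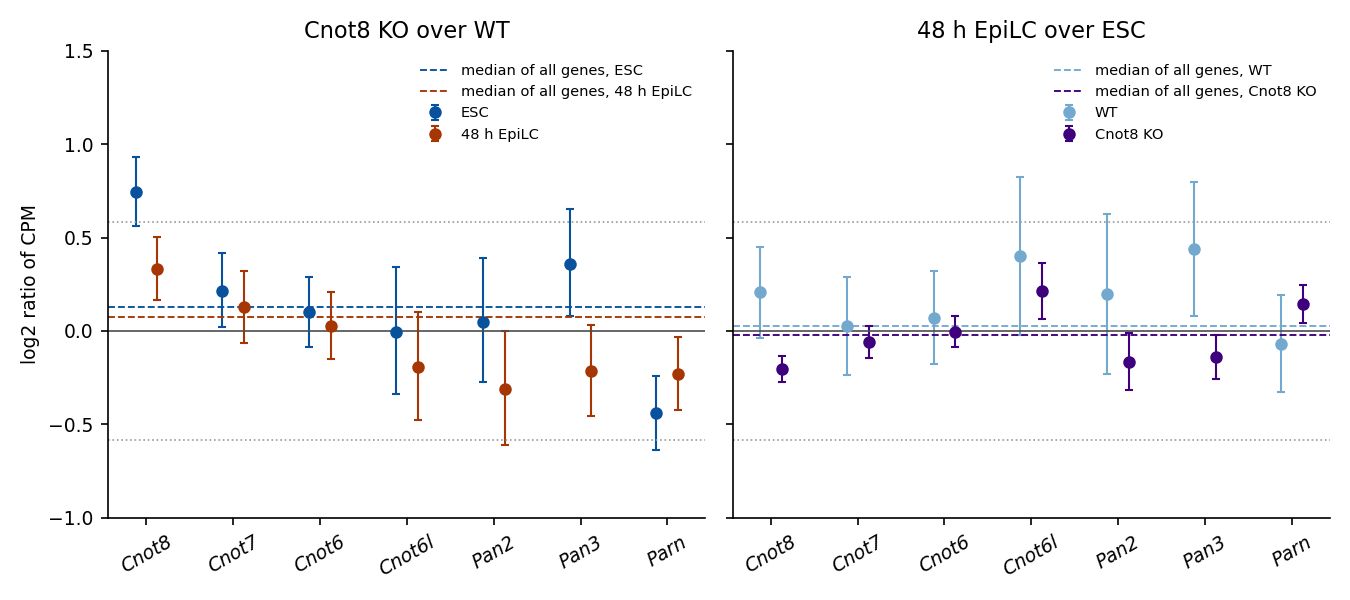
Log2 ratios of CPM with exact 95% intervals, Cnot8 KO over WT at each stage (left) and 48h-EpiLC over ESC in each line (right); dashed lines are the medians of all genes tested, dotted lines mark 1.5-fold. Cnot8 in ESCs, at 0.74, is the point past the dotted lines, and in the right panel the WT and KO points of Cnot8, at 0.21 and -0.20, lie on opposite sides of 0, as do those of Cnot7, Cnot6, Pan2, Pan3 and Parn.

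Per cell, the deadenylase genes were seen as 1 or a few UMIs. Without thinning, at least 1 Cnot8 UMI was found in 45.1% of WT ESCs (40.3% to 49.9%), 63.0% of KO ESCs (61.3% to 64.8%), 54.3% of WT 48h-EpiLCs (49.1% to 59.5%) and 67.2% of KO 48h-EpiLCs (65.4% to 68.8%). Because KO 48h-EpiLCs were deeper, each cell was also thinned to 5000 UMIs, which left out 1 WT and 23 KO ESCs and 1 WT and 9 KO 48h-EpiLCs. The Cnot8 shares were then 18.2% (14.7% to 22.2%) and 31.1% (29.5% to 32.8%) in WT and KO ESCs, and 20.4% (16.4% to 24.9%) and 28.7% (27.1% to 30.4%) in WT and KO 48h-EpiLCs, with no overlap between WT and KO at either stage. As a background from free RNA, a UMI of the fibroblast collagen Col1a1 was found in 13 of 435 WT ESCs (2.99%, 1.60% to 5.06%, median 13151 UMIs).

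For the other 6 genes the thinned shares of WT and KO cells had overlapping intervals at both stages. Cnot7 was found in 19.1% of WT and 20.7% of KO ESCs and in 21.3% and 18.7% of 48h-EpiLCs, and Cnot6 in 17.3% and 20.5% and in 21.3% and 20.3%. Parn was found in 15.9% and 14.3% of WT and KO ESCs and in 18.5% and 15.0% of 48h-EpiLCs. Pan3, Pan2 and Cnot6l lay between 4.84% (Cnot6l in WT ESCs) and 11.6% (Pan3 in KO ESCs). The collagen share of 2.99% was not thinned. Without thinning, Cnot6l was found in 17.0%, Pan2 in 18.4% and Pan3 in 22.5% of WT ESCs. At least 2 Cnot8 UMIs were held by 2.07% of WT and 5.08% of KO ESCs and by 2.72% and 4.01% of 48h-EpiLCs.

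**Figure D3:**
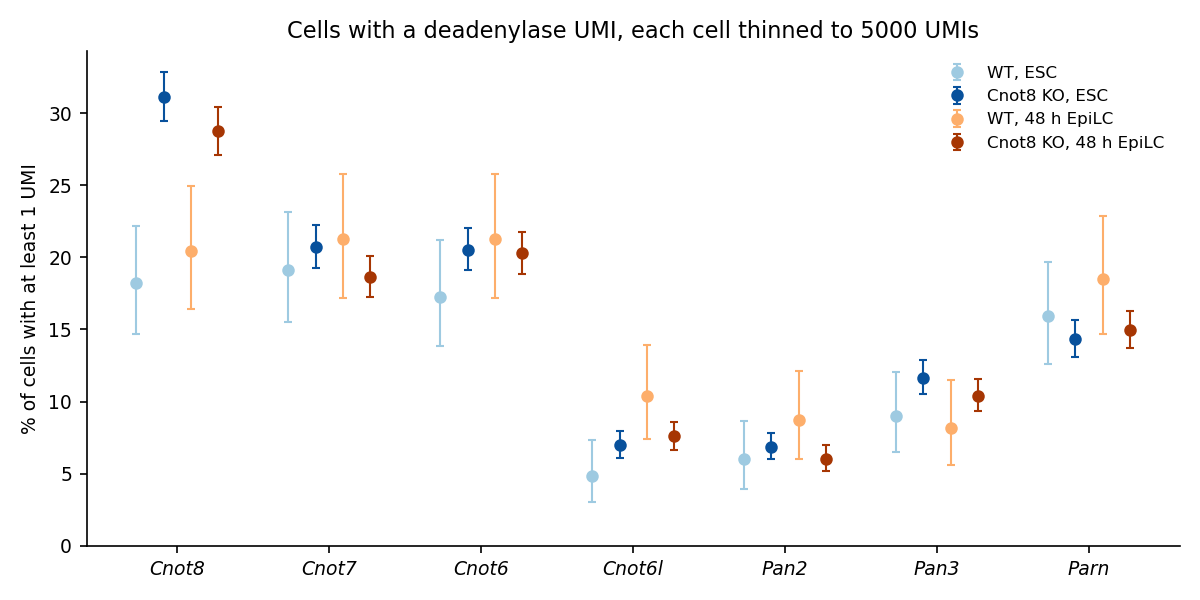
Share of cells, in percent, with at least 1 UMI of each gene after each cell was thinned to 5000 UMIs, in the 4 classes; bars are exact 95% binomial intervals. The KO points of Cnot8, 31.1% in ESCs and 28.7% in 48h-EpiLCs, are the highest of the plot, and no other gene has WT and KO intervals that are apart.

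The deadenylase genes were found together in a cell about as often as the product of their shares gives. Of thinned ESCs, 31.9% held no UMI of any of the 7 genes, 39.8% held UMIs of 1 gene and 20.7% of 2 genes, and in 48h-EpiLCs these shares were 31.2%, 40.5% and 20.7%. Cnot8 and Cnot7, which take the same place in the Ccr4-Not complex, were found together in 561 of 10552 thinned ESCs against 557 given by the product, a ratio of 1.01 (0.93 to 1.09), and in 461 of 9197 48h-EpiLCs against 446, a ratio of 1.03 (0.94 to 1.13). Within the classes this ratio was 0.93 (0.51 to 1.54) in WT and 1.01 (0.88 to 1.16) in KO ESCs, and 1.07 (0.63 to 1.68) in WT and 1.05 (0.90 to 1.22) in KO 48h-EpiLCs.

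Cnot6 and Cnot6l had ratios of 1.10 (0.93 to 1.28) in ESCs and 1.13 (0.96 to 1.32) in 48h-EpiLCs, and Pan2 and Pan3 had ratios of 0.96 (0.75 to 1.21) and 1.05 (0.81 to 1.32). Over the 21 pairs the median ratio was 1.04 in ESCs, between 0.91 and 1.22, and 1.03 in 48h-EpiLCs, between 0.74 and 1.16. The interval of 1 pair excluded 1 in each library, and with 21 pairs compared no weight is given to either. In 48h-EpiLCs this pair was Pan2 and Parn, found in 78 cells against 105 (0.74, 0.59 to 0.92), which is named after its values were seen.

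Over all kept cells the UMI counts of each gene varied about as much as counting gives, with a wider range in the small WT classes. In thinned cells the variance over the mean, which is 1 for pure counting error, lay between 0.99 and 1.05 for all 7 genes over all kept ESCs and between 1.01 and 1.04 over all kept 48h-EpiLCs. Cnot8 had 1.05 and 1.01. A pooled value mixes WT and KO cells, and within KO ESCs and KO 48h-EpiLCs Cnot8 had 1.00 and 0.97. In WT ESCs Cnot8 had 1.00, and the 7 genes lay between 0.92 (Parn) and 1.12 (Cnot6). In WT 48h-EpiLCs Cnot8 had 1.19, and the 7 genes lay between 0.92 (Pan2) and 1.25 (Pan3).

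**Figure D4:**
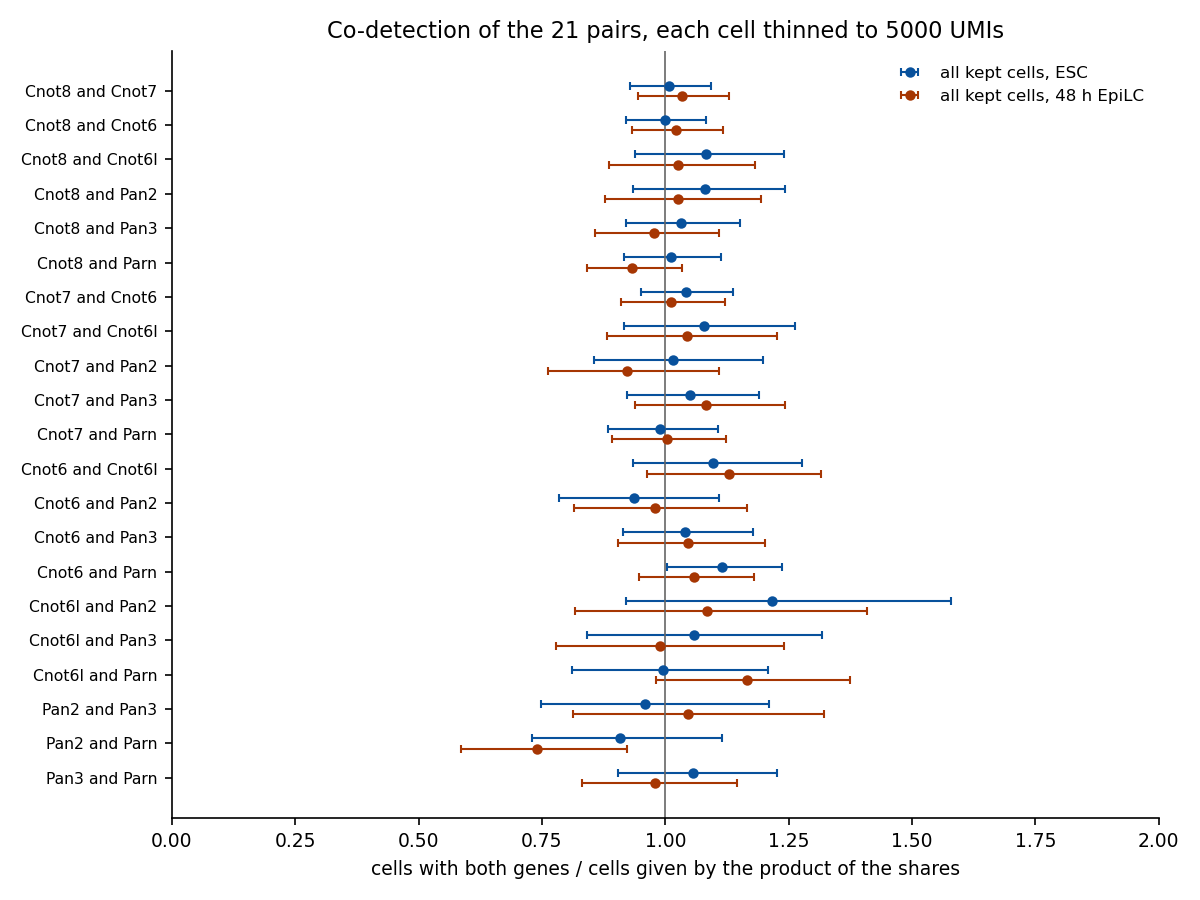
Number of cells with UMIs of both genes of a pair over the number given by the product of their shares, for the 21 pairs in all kept ESCs and 48h-EpiLCs thinned to 5000 UMIs. Bars are 95% binomial intervals of the number with both, with the product taken as fixed. Ratios lie between 0.74 and 1.22, and Cnot8 with Cnot7 is at 1.01 and 1.03.

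Cells that met a list of another cell type were few in the ESC library, and the feeder-rule cells had other levels of some of these genes. By the marker rule (at least 4 of 8 markers and 8 UMIs over them), 76 kept ESCs met the feeder fibroblast list, 0 of them in the WT and 27 in the KO class, and 134 met the primitive endoderm list, 3 in the WT and 59 in the KO class. In the feeder-rule cells Cnot6l was at 27.6 CPM (19.7 to 37.6) and Pan3 at 34.5 CPM (25.6 to 45.5), against 14.0 CPM (13.4 to 14.6) and 22.3 CPM (21.5 to 23.1) in cells that met no list. Cnot8 was lower there, at 38.7 CPM (29.2 to 50.2) against 61.1 CPM (59.8 to 62.4), and at 63.8 CPM (52.7 to 76.4) in the primitive endoderm-rule cells. The feeder-rule cells also held pluripotency RNA. Dppa5a was at 1020 CPM and Sox2 at 99.5 CPM in them, against 2648 and 250 CPM in cells that met no list. Their levels are thus not those of pure fibroblasts, and the part of ESC RNA in them was not tested. The intervals of the other 4 genes in feeder-rule cells, and of all 7 genes in primitive endoderm-rule cells, overlapped those of cells that met no list. Summed feeder markers were at 10.7 CPM in WT and 37.1 CPM in KO ESCs, with Lum at 0 in WT cells and 0.113 CPM in KO cells. Leaving out all cells that met a list gave Cnot8 log2 ratios within the intervals above.

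No deadenylase gene varied with the level of G2/M genes beyond counting error. The 25% of cells with the highest share of a G2/M list were set against the 25% with the lowest, and all intervals of the log2 ratio of the 7 genes included 0 in the 4 classes. For Cnot8 in KO ESCs the ratio was 0.08 (-0.07 to 0.22) and in KO 48h-EpiLCs 0.12 (-0.02 to 0.25). The sum of the 7 genes had ratios of -0.02 (-0.10 to 0.06) in KO ESCs and -0.003 (-0.071 to 0.066) in KO 48h-EpiLCs, and of 0.15 (-0.07 to 0.38) in WT ESCs and 0.16 (-0.06 to 0.39) in WT 48h-EpiLCs.

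The other genes of the pathway were taken from 4 lists that hold 25 genes in all, of which 23 were tested in ESCs and 22 in 48h-EpiLCs. Among 8 further Ccr4-Not subunits, 6 had a KO over WT interval above 0 and 0 below in ESCs, where 39.3% of all tested genes had an interval above 0 and 19.4% below, with a median log2 ratio of 0.30 beside 0.13 over all genes. In 48h-EpiLCs 6 of 7 tested subunits had an interval above 0, where 31.9% of all tested genes did and 18.7% had one below, with a median of 0.33 beside 0.08. The scaffold Cnot1 was at 129 CPM in WT and 136 CPM in KO ESCs (0.07, -0.03 to 0.18) and at 97.9 and 102 CPM in 48h-EpiLCs (0.05, -0.07 to 0.18). Cnot3, a subunit of the Not module, was at 165 CPM in WT and 209 CPM in KO ESCs (0.34, 0.24 to 0.43).

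Past 1.5-fold in ESCs were 2 of the 8 subunits, both higher in KO cells, where 13.8% of all tested genes were. Cnot11, which binds the amino-terminal part of Cnot1 together with Cnot10, was at 32.7 CPM in WT and 56.3 CPM in KO ESCs (0.79, 0.58 to 1.00), and at 46.3 and 62.9 CPM in 48h-EpiLCs (0.44, 0.27 to 0.62). Tnks1bp1 was at 5.85 CPM in WT and 11.0 CPM in KO ESCs (0.91, 0.42 to 1.44), and at 4.66 CPM in WT and 5.03 CPM in KO 48h-EpiLCs (0.11, -0.44 to 0.71), where its mean was under the minimum of 5 CPM. Its log2 ratio of 48h-EpiLCs over ESCs was -1.13 (-1.34 to -0.92) in KO cells and -0.33 (-1.09 to 0.42) in WT cells.

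Of the Tob and Btg adaptors, which bind Caf1-type subunits, 5 of 6 were tested. At both stages 1 of these 5, Btg3, was lower in KO cells by over 1.5-fold, where 5.6% of all tested genes were in ESCs and 4.95% in 48h-EpiLCs. It was at 94.6 CPM in WT and 55.8 CPM in KO ESCs (-0.76, -0.89 to -0.63), and at 136 and 85.0 CPM in 48h-EpiLCs (-0.68, -0.78 to -0.57). Its log2 ratio of 48h-EpiLCs over ESCs was 0.52 (0.37 to 0.68) in WT cells and 0.61 (0.54 to 0.68) in KO cells. Btg4 had 0 UMIs in all 4 classes, which allows up to 0.487 CPM in WT and 0.068 CPM in KO ESCs. Tob1 was at 12.5 CPM in WT and 17.1 CPM in KO ESCs (0.45, 0.11 to 0.81), and at 16.1 and 15.3 CPM in 48h-EpiLCs (-0.08, -0.38 to 0.24).

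The 5 poly(A)-binding genes were close between the lines, with log2 ratios of KO over WT between -0.07 and 0.12 in ESCs and between -0.21 and 0.08 in 48h-EpiLCs. In ESCs 0 of the 5 intervals lay off 0. In 48h-EpiLCs 1 lay above 0 and 2 below, beside 31.9% and 18.7% of all tested genes. Pabpc1, the main cytoplasmic poly(A)-binding protein, was at 1114 CPM in WT and 1125 CPM in KO ESCs. The last list holds genes listed as other deadenylases, and their enzyme activity was not examined. Of these, 3 of 5 tested had a KO over WT interval above 0 in ESCs, beside 39.3% of all tested genes. In 48h-EpiLCs it was 5 of 5, beside 31.9%. At either stage 0 of these 5 were past 1.5-fold between KO and WT. Of all tested genes, 13.8% were higher and 5.6% lower past that fold in ESCs, and 9.01% and 4.95% in 48h-EpiLCs. Noct, a Ccr4-related gene known for its circadian expression, was lower in 48h-EpiLCs than in ESCs, from 88.2 to 43.3 CPM in WT (-1.03, -1.25 to -0.82) and from 108 to 51.2 CPM in KO cells (-1.08, -1.15 to -1.01). Pnldc1 was also past 1.5-fold between the stages in WT cells, from 8.45 to 5.63 CPM, with an interval that included 0 (-0.59, -1.25 to 0.06). In WT cells 2 of the 5 tested genes of this list were thus lower in 48h-EpiLCs by over 1.5-fold, where 12.4% of all tested genes were. In KO cells it was 1 of 5, where 11.1% were.

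**Figure D5:**
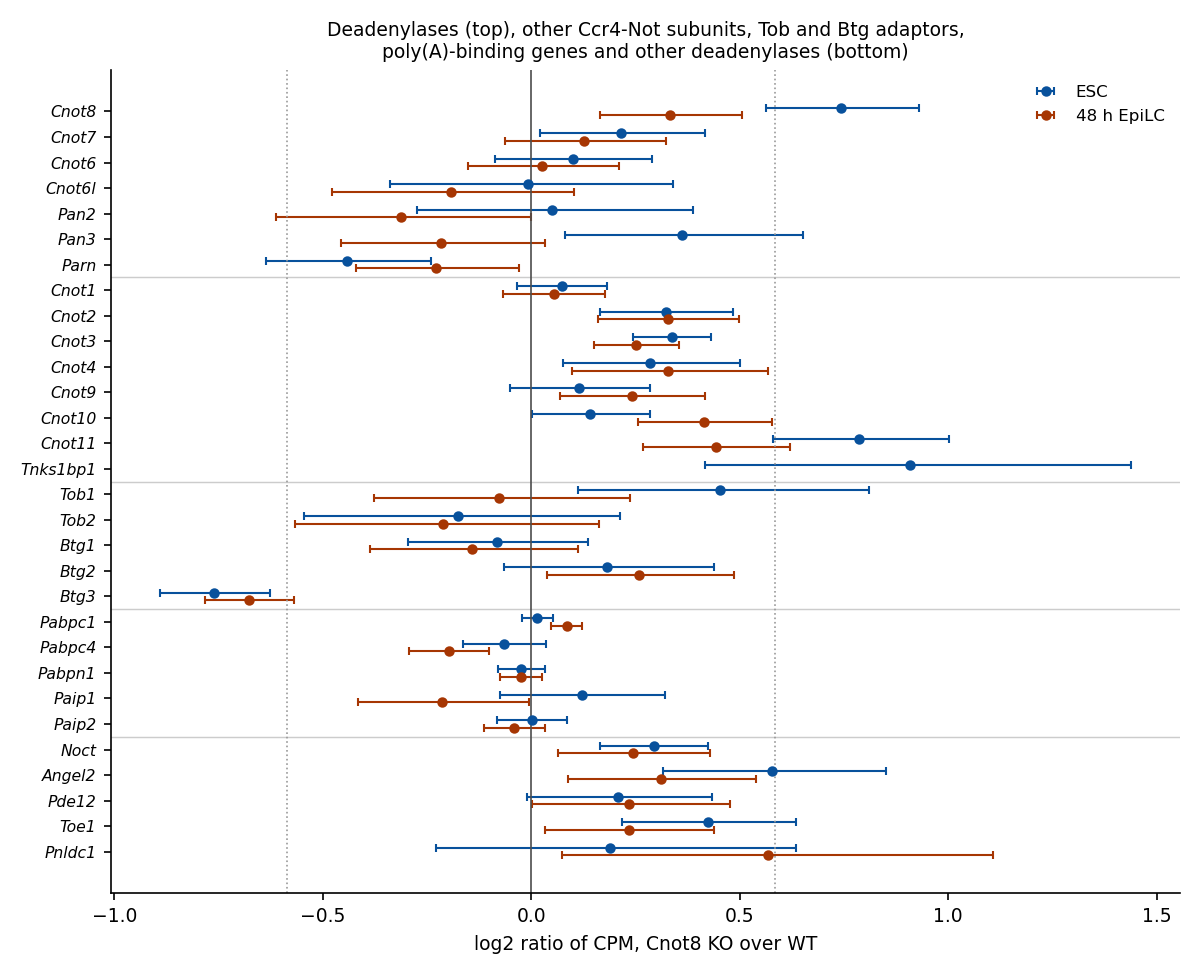
Log2 ratio of CPM, Cnot8 KO over WT, with exact 95% intervals in ESCs and 48h-EpiLCs for the 7 deadenylase genes (top block) and the tested genes of the 4 lists; dotted lines mark 1.5-fold and genes under a mean of 5 CPM are left out. Cnot8, Cnot11 and Tnks1bp1 lie past the upper line in ESCs, and Btg3 lies past the lower line at both stages.

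Across the 4 classes, the genes whose pattern was most like that of Cnot8 were Ski, Clptm1 and Pdhb. Likeness was the root mean square difference of log2 CPM, each gene centred on its own mean, among 4745 genes with at least 20 CPM in every class, and it was 0.024, 0.028 and 0.030. Ski was at 31.7, 53.8, 37.0 and 48.2 CPM in WT ESCs, KO ESCs, WT 48h-EpiLCs and KO 48h-EpiLCs. For Cnot7 they were Adipor1, Tk1 and Anp32b, with differences of 0.009, 0.010 and 0.011. With 4 points that share 2 libraries, this is a description of these classes.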

How the data were processed

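The authors made the deposited tables, which hold whole-number counts of UMIs per gene and cell barcode, with Cell Ranger 3.0.2 and a mm10 reference to which the tdTomato coding sequence had been added. The submitters' processing notes also name Seurat 4. The 10x 3′ kit was used, and no correction for free RNA is stated. The barcodes were those called as cells, with 144584246 UMIs in the ESC and 163771168 UMIs in the 48h-EpiLC library.

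Counts were summed over the cells of a class and scaled to its total (CPM), with exact Poisson intervals. For ratios the interval is the exact binomial one given the summed count of the 2 classes, and shares of cells carry Clopper-Pearson intervals. Differences between ratios carry normal intervals on the log scale. Co-detection ratios carry the binomial interval of the number with both, with the product of the shares taken as fixed. Intervals and floors (3 counts) cover counting error only. Genes with a mean of at least 5 CPM in the 2 classes compared were called tested, and 1.5-fold was the size named. Thinning drew 5000 UMIs per cell without replacement. No doublet caller was run. Cells holding both tdTomato and Y-linked UMIs fell in no class, and the top 10% of UMI totals was left out as an alternative. TMM factors came from edgeR 4.0.16. Other work used Python 3.11.15, numpy 2.4.6 and scipy 1.17.1, and the intervals and thinning were tested on simulated data.

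The genes named were the 7 deadenylase genes, the genes of 4 pathway lists past 1.5-fold, and for Cnot8 and Cnot7 the 3 genes of most similar pattern. Other list genes were named after their values were seen. The members, the lists and the class rule were chosen with earlier results of these data known. Gene positions and transcripts were those of GENCODE M21 on GRCm38, matched by gene identifier. The guide letters of the study served only to find the site, and the printed bases are those of the reference.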

Additional observations from a re-analysis of the deposited data

Results flagged for a closer look

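For 6 genes the log2 ratio of 48h-EpiLCs over ESCs had opposite signs in WT and KO cells, and for 2 genes the KO over WT ratio had opposite signs at the 2 stages. With 1 library per stage none of these differences was tested over replicates. The stage ratios in WT and KO cells were 0.21 and -0.20 for Cnot8, 0.027 and -0.062 for Cnot7, 0.070 and -0.0029 for Cnot6, 0.20 and -0.16 for Pan2, 0.44 and -0.14 for Pan3, and -0.067 and 0.15 for Parn. The KO over WT ratios in ESCs and 48h-EpiLCs were 0.050 and -0.31 for Pan2 and 0.36 and -0.22 for Pan3. Counting error alone covers the difference for Cnot7 (-0.09, -0.36 to 0.18), Cnot6 (-0.07, -0.33 to 0.18), Pan2 (-0.36, -0.80 to 0.08) and Parn (0.21, -0.06 to 0.49), and does not cover it for Cnot8 and Pan3. Pan3 is the gene for which both stage intervals lay off 0, and with the classes set by Dera and Ipp its stage ratios, 0.22 and 0.02, had the same sign. Thinned to 5000 UMIs, its stage ratio in WT cells was 0.049 and its KO over WT ratio at 48 h was 0.19, the same sign as in ESCs. Thinned in the same way, the stage ratio of Parn in WT cells was 0.30, the same sign as in KO cells.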

How the results depend on the processing

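Under 13 alternatives, 2 of them chosen after seeing the data, the KO over WT log2 ratio of Cnot8 stayed above 0 at both stages, between 0.40 and 0.87 in ESCs and between 0.17 and 0.46 in 48h-EpiLCs, and was past 1.5-fold in 12 of 13 in ESCs and 0 of 13 in 48h-EpiLCs. With cells of at least 20000 UMIs and WT by absent Y-linked UMIs alone it was 0.40 in ESCs, 0 members were past 1.5-fold there, and the stage ratio of Cnot8 in KO cells was -0.10, the same value as with cells of at least 20000 UMIs in the classes as reported. Thinning to 5000 UMIs put 2 members past 1.5-fold for KO over WT in ESCs and 1 for the stage ratio in WT cells, in each case adding Cnot6l (0.60 and 1.21), which had 21 UMIs in thinned WT ESCs, and cells of at least 20000 UMIs also put 1 past it for the stage ratio in WT cells, Cnot6l at 0.62. The KO over WT ratio of Parn in ESCs lay between -0.11 (thinned to 5000 UMIs) and -0.23 (classes by Dera and Ipp) under the alternatives that moved it beyond its interval. Without a minimum CPM, 46.0% to 51.8% of all genes were past 1.5-fold. Shares of cells moved with the thinning depth, and the co-detection ratio of Cnot8 and Cnot7 stayed within its interval in 10 of 10 alternatives. No paired analysis was possible because there was 1 library per stage and no replicate numbers, and for the same reason no library could be left out. The 435 and 368 WT cells limit the precision for Cnot6l, Pan2 and Pan3.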
